A study of Mus musculus with 9 samples.

Results

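Calcineurin is a calcium- and calmodulin-dependent protein phosphatase, and the NFATc proteins are transcription factors that it dephosphorylates and so sends to the nucleus. The 10 genes described here are the catalytic subunits Ppp3ca and Ppp3cb, the regulatory subunit Ppp3r1, the calcineurin-binding modulators Rcan1, Rcan2 and Cabin1, and the factors Nfatc1, Nfatc2, Nfatc3 and Nfatc4. They were chosen by symbol from the deposited table of 32594 genes, all 10 were found, and all 10 passed the filter on low counts. The choice used no measured value, but it was made with earlier results of these data known. RNA came from hindlimb skeletal muscle of 5 wild type and 4 SMA libraries, where SMA stands for SMN delta 7 mice, a model of spinal muscular atrophy, and both groups had the FVB/N background. No treatment, age, sex or litter is given in the labels, and neither are the alleles of the SMA mice beyond that name. Nothing says that each library came from its own animal. A p-value here sets the group difference against the spread of these samples only, and that spread may be technical. The comparison of the groups asks how transcripts of this pathway differ in SMA muscle.

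In skeletal muscle the pathway is known for coupling the calcium signals of nerve-driven contraction to gene expression, above all of genes of slow and oxidative fibres. Cytosolic calcium loads calmodulin, calmodulin opens the active site of the catalytic A subunit, and the B subunit, itself a calcium-binding protein, is needed for activity. Proteins of the RCAN family and Cabin1 bind calcineurin and can inhibit it, kinases such as GSK3 and casein kinase return NFATc proteins to the cytoplasm, and Rcan1 is itself a classical target of NFATc factors, which makes it a feedback regulator. That feedback acts on an inner transcription start of Rcan1, while a second, outer start is regulated separately.

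Rcan1 has 2 matched RefSeq starts that the count table merges into 1 value. Nfatc2 and Ppp3cb moved in opposite directions, and the outer Nfatc2 start had as many NFAT cores as the Ppp3cb start. For these reasons the 250 bases before 4 transcription starts are shown. They are from RefSeq on GRCm38.p6, written 5′ to 3′ on the strand of the gene, with each GGAAA, the core of the NFAT recognition sequence, or its reverse complement TTTCC, in capitals.
Rcan1 inner start, chr16:92400079-92400328, minus strand: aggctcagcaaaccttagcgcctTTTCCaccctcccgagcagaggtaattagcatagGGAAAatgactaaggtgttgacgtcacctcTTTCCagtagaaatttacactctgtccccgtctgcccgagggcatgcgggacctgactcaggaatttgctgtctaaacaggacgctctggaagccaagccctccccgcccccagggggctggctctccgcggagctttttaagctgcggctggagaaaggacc
Rcan1 outer start, chr16:92466170-92466419, minus strand: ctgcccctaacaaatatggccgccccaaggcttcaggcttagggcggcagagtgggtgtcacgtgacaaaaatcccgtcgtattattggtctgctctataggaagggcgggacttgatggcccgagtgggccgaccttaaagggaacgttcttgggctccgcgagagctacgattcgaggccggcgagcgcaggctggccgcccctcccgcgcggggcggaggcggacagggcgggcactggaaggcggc
Nfatc2 outer start, chr2:168601658-168601907, minus strand: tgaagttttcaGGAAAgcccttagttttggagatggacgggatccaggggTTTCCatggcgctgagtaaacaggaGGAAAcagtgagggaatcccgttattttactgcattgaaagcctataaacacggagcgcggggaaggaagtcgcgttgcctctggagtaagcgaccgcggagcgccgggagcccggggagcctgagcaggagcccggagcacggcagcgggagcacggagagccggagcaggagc
Ppp3cb start, chr14:20546574-20546823, minus strand: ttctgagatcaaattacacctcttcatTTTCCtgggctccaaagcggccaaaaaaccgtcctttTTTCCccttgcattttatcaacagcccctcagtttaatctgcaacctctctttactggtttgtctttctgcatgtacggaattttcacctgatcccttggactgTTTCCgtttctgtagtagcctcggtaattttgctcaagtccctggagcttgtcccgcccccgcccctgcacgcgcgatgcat

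The window of the inner Rcan1 start held 3 cores and that of the outer start none. The sequence after that outer start was not found in GENCODE M21 transcripts of Rcan1. There the gene reaches further upstream, to 92470867, and the bases before that end were not examined. The windows of the outer Nfatc2 start and of Ppp3cb held 3 each. An inner Nfatc2 start, whose window is not shown, held 1 core. RefSeq entries were matched for 8 of the 10 genes, with 13 starts in all, and none for Ppp3ca and Nfatc1. Of the 13 windows, 7 held at least 1 core and 4 held 3 or more, the fourth belonging to Nfatc4. Among 32851 windows of the same length over all genes, 55.6% held the core on either strand and 6.39% held 3 or more. A core is a description of these letters, not a site of binding, and gene-level counts do not tell which start was used. Whether the number of cores goes with the direction of change was not tested.

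In SMA muscle 4 of the 10 genes fell, 3 rose and 3 did not pass. Those that fell were the calcineurin subunits Ppp3ca, Ppp3cb and Ppp3r1 and the feedback regulator Rcan1. Those that rose were the second RCAN gene Rcan2, the factor Nfatc2 and the inhibitor Cabin1. Genes were tested with the quasi-likelihood F test of edgeR, with Benjamini-Hochberg adjustment over all 15873 genes tested and a threshold of 0.05, and rose and fell mean that it was passed. Of all genes tested 54.9% passed, 27.7% upward and 27.2% downward, so the count of 7 among 10 is read against a background in which most genes moved. The groups did not overlap for 6 of the 10 genes, 3 higher and 3 lower, where 44.2% of all genes tested did not overlap, 22.6% higher and 21.7% lower. The median log2 fold change was -0.14 over the 10 genes and 0.006 over all genes.

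**Figure D1:**
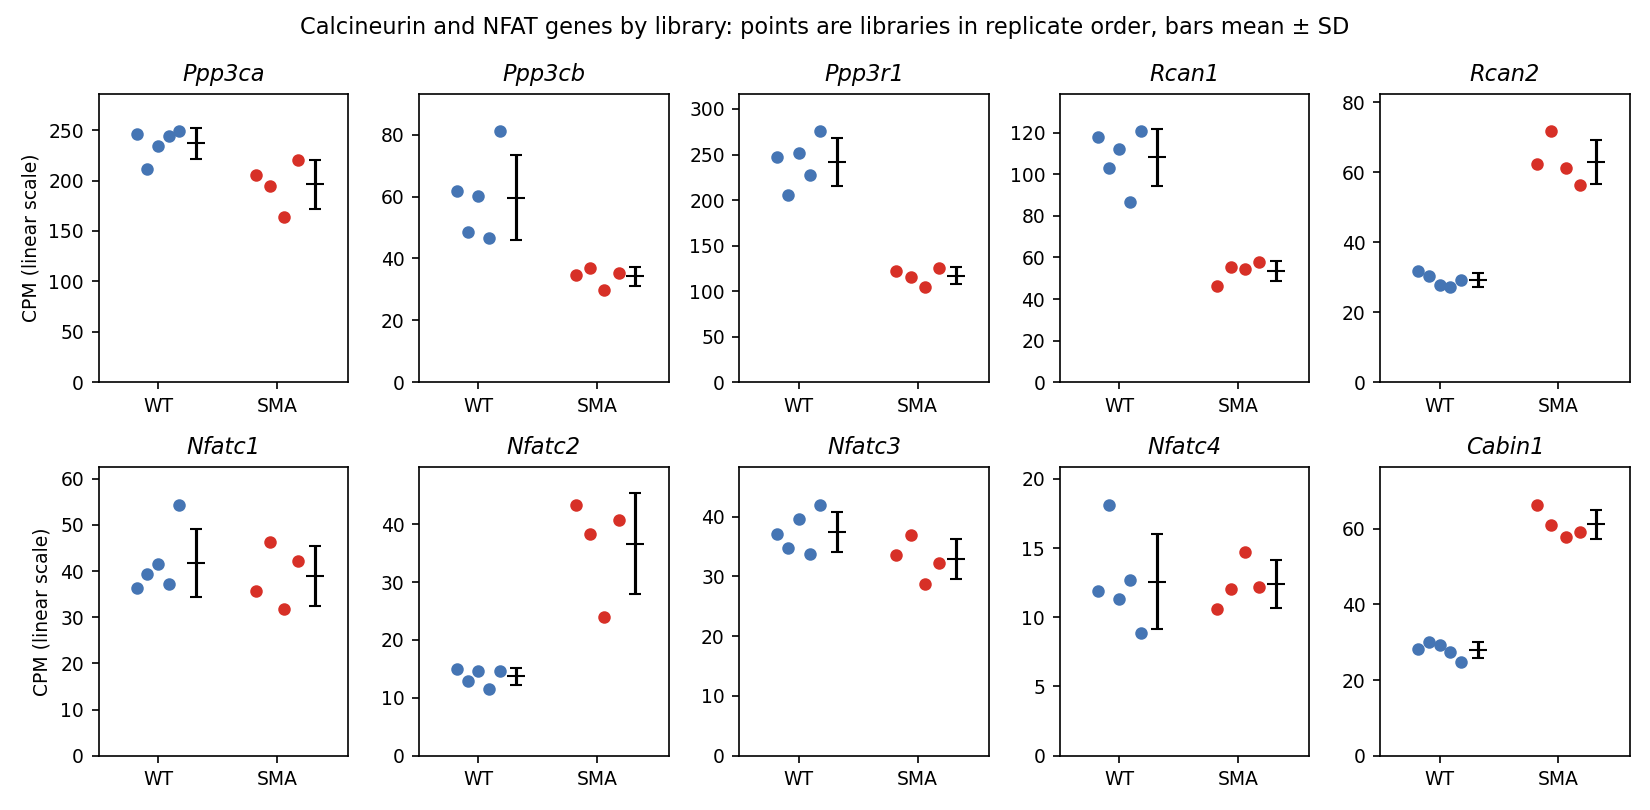
Level in CPM, on a linear axis from 0, of the 10 genes, with 1 point per library in replicate order, wild type in blue and SMA in red, and black bars for mean ± SD. The groups are apart for Ppp3cb, Ppp3r1, Rcan1, Rcan2, Nfatc2 and Cabin1 and overlap for the other 4 genes.

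Libraries held 24917665 to 35087722 counts. Smn1, the mouse gene for the SMN protein, was at 11.1 to 13.8 CPM in wild type and 1.40 to 2.72 CPM in SMA, and matched the labels in all 9 libraries. Y-linked genes exceeded 1 CPM in 4 wild type libraries and 1 SMA library, so sex and group are partly confounded. Of 6 skeletal muscle markers 5 fell, with Ckm from 23316 ± 4327 to 10758 ± 359 CPM (SD, n = 5 and 4), and their summed level ranged over 101137 to 142299 CPM in wild type and 52929 to 66706 CPM in SMA. In bulk tissue fewer cells of a type and less RNA per cell cannot be told apart. SMA 3 carried neuronal transcripts, with a summed level of 40.4 CPM for 5 markers against 3.96 to 5.38 CPM in the other libraries. Bone and osteoclast markers were highest in wild type 1 and 2, at 239.7 and 132 CPM against 9.84 to 34.8 CPM elsewhere, and all 4 that could be tested fell. Adipocyte markers were highest in wild type 5, at 184 CPM against 23.9 to 71.0 CPM in wild type 1 to 4 and 15.5 to 23.4 CPM in SMA. Of these 5 markers 3 fell. Of 5 neuronal markers 4 were too low to test and 1 did not pass. The 3 genes that rose and the fall of Ppp3cb, Ppp3r1 and Rcan1 also passed without wild type 5 and SMA 3 and, in a comparison chosen after seeing the data, without wild type 1 and 2.

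The regulatory subunit showed the largest fall among the calcineurin subunits. Ppp3r1, which encodes calcineurin B (mm10, chromosome 11, 17159263 to 17200375, plus strand), was at 247, 206, 252, 227 and 276 CPM in wild type libraries 1 to 5 and 122, 115, 104 and 125 CPM in SMA libraries 1 to 4, where CPM is the count per 1000000 counts of a library after scaling. Each SMA library lay below the lowest wild type library. The gene fell by 1.05 ± 0.10 on the log2 scale, a 2.07-fold difference (± gives the SE; edgeR adjusted p = 5.17e-06). In GENCODE M21, 462 of its 3228 exon bases are shared with Wdr92 on the same strand, so some of its reads could have been given to either gene or to neither; Wdr92 had 2387 counts over the 9 libraries and Ppp3r1 had 32897 in wild type and 16794 in SMA. Its testis-typical relative Ppp3r2 had 2 reads in all wild type libraries and 0 in all SMA libraries and was not tested.

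The beta catalytic subunit fell clearly, and the alpha subunit by little. Ppp3cb (mm10, chromosome 14, 20499364 to 20546573, minus strand) was at 61.7, 48.4, 60.2, 46.7 and 81.1 CPM in wild type libraries 1 to 5 and 34.7, 36.8, 29.9 and 35.4 CPM in SMA libraries 1 to 4. Wild type 5 was the highest library, and the groups did not overlap. The gene fell by 0.80 ± 0.15 on the log2 scale (SE; edgeR adjusted p = 6.91e-04). Ppp3ca (mm10, chromosome 3, 136670124 to 136937727, plus strand), the most abundant A subunit, was at 246, 212, 234, 244 and 249 CPM in wild type libraries 1 to 5 and 206, 195, 164 and 220.5 CPM in SMA libraries 1 to 4. SMA 4 reached into the wild type range, above wild type 2. Its difference was -0.27 ± 0.097 (SE; edgeR adjusted p = 0.0317), and this fall did not pass when libraries were scaled to total counts (log2 fold change -0.038, edgeR adjusted p = 0.723), with sex as a covariate (edgeR adjusted p = 0.103), without wild type 5 and SMA 3 together (0.0863), and without wild type 1, 3 or 4 or SMA 2 or 3 (0.0503 to 0.0734). The gamma subunit gene Ppp3cc, which is not 1 of the 10, rose by 0.45 ± 0.10, from 8.70 ± 1.001 to 11.9 ± 0.592 CPM (SD, n = 5 and 4; edgeR adjusted p = 0.00245).

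Shares within a family do not depend on how libraries are scaled. Of the summed counts of the 3 A subunit genes, Ppp3ca took 77.8% ± 2.98 in wild type and 80.9% ± 1.40 in SMA (SD, n = 5 and 4; two-sided exact permutation test, adjusted p = 0.0970), and the ranges overlapped. The share of Ppp3cb was 19.4% ± 3.03 in wild type and 14.1% ± 0.801 in SMA, with an adjusted p of 0.0227 from the exact permutation test. That of Ppp3cc was 2.86% ± 0.359 in wild type and 4.95% ± 0.676 in SMA, with an adjusted p of 0.0132 from the exact permutation test. Both ranges were apart. With counts divided by exon length, Ppp3cc took 8.74% ± 1.04 in wild type and 14.6% ± 1.77 in SMA, a difference of 5.83 in place of 2.09 percentage points, and the difference for Ppp3ca was 0.139 in place of 3.14. In all 10 shares were tested in this way over 126 divisions of the 9 libraries and adjusted together, and the smallest p that these can give is 0.00794. The Ppp3cb share did not pass without wild type 5 and SMA 3 (exact permutation test, adjusted p = 0.0714) or when any 1 SMA library was left out (adjusted p = 0.0510 in each case), where fewer divisions are possible. Per kilobase of exon, Ppp3r1 transcripts stood to the summed A subunit transcripts at ratios of 2.22, 2.15, 2.38, 2.15 and 2.28 in wild type libraries 1 to 5 and 1.33, 1.28, 1.36 and 1.30 in SMA libraries 1 to 4. The ratio, chosen after seeing the data and not tested, was lower in every SMA library than in any wild type library.

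The RCAN genes moved in opposite directions. Rcan1 (mm10, chromosome 16, 92391953 to 92470867, minus strand) was at 118, 103, 112, 86.8 and 121 CPM in wild type libraries 1 to 5 and 46.2, 55.5, 54.4 and 57.7 CPM in SMA libraries 1 to 4. All SMA libraries were below all wild type libraries, and Rcan1 fell 2.02-fold, by 1.02 ± 0.11 on the log2 scale (SE; edgeR adjusted p = 1.12e-05). Rcan2 (mm10, chromosome 17, 43801351 to 44039516, plus strand), a second calcineurin-binding family member, was at 31.7, 30.5, 27.7, 27.2 and 29.2 CPM in wild type libraries 1 to 5 and 62.3, 71.8, 61.2 and 56.5 CPM in SMA libraries 1 to 4. The lowest SMA library was above the highest wild type library, and Rcan2 rose 2.15-fold, by 1.11 ± 0.084 on the log2 scale (edgeR adjusted p = 9.60e-07). The third family gene, Rcan3, had a log2 fold change of 0.18 ± 0.13 (edgeR adjusted p = 0.247), with overlapping groups.

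The balance between the family members differed between the groups. The count of Rcan2 divided by that of Rcan1 was 0.269, 0.296, 0.246, 0.313 and 0.242 in wild type libraries 1 to 5 and 1.35, 1.29, 1.13 and 0.978 in SMA libraries 1 to 4. Rcan2 has the longer exons, and per kilobase of exon the ratio was 0.190, 0.209, 0.174, 0.221 and 0.171 in wild type and 0.952, 0.912, 0.795 and 0.690 in SMA. Every SMA library was above every wild type library on both scales, and per length Rcan1 exceeded Rcan2 in all 9 libraries. As a share of the family's counts Rcan1 took 73.3% ± 2.68 in wild type and 42.0% ± 3.36 in SMA and Rcan2 19.97% ± 1.55 in wild type and 49.4% ± 3.37 in SMA (SD, n = 5 and 4; two-sided exact permutation test, adjusted p = 0.0132 for both). The share of Rcan3 was 6.68% ± 1.40 in wild type and 8.65% ± 1.17 in SMA and did not pass (exact permutation test, adjusted p = 0.0893). SMA 3, the library with neuronal transcripts, had an Rcan2 level between those of SMA 4 and SMA 1.

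**Figure D2:**
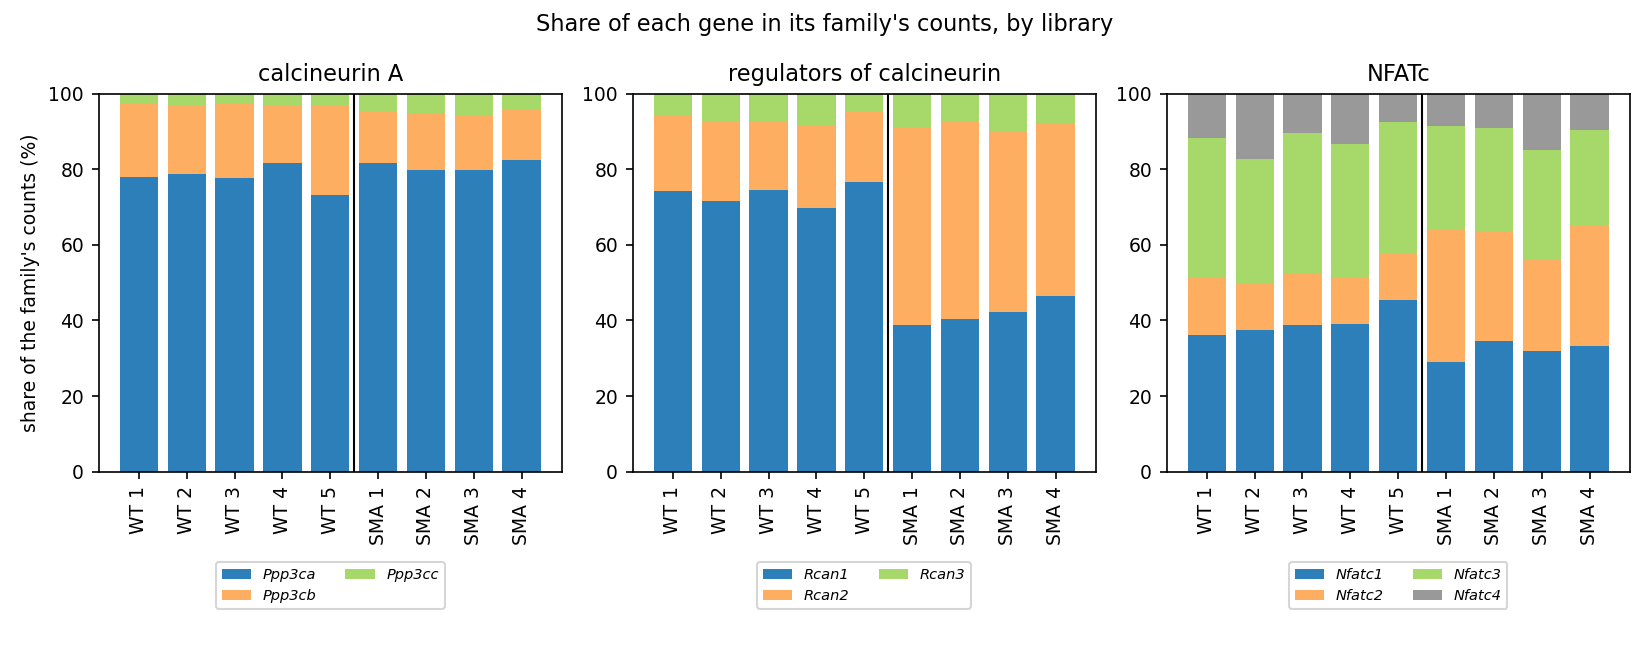
Stacked bars give, for each library, the share in percent of each gene in the summed counts of its family, for the calcineurin A subunits, the RCAN genes and the NFATc genes, with a line between the 5 wild type and the 4 SMA libraries. Rcan2 takes 45.5% to 52.3% of RCAN counts in SMA libraries against 18.3% to 21.9% in wild type, and Nfatc2 takes 24.2% to 35.2% of NFATc counts in SMA against 12.1% to 14.9%.

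Cabin1, whose product binds and inhibits calcineurin and also represses MEF2 factors, was higher in all SMA libraries. The gene (mm10, chromosome 10, 75646112 to 75764341, minus strand) was at 28.1, 30.1, 29.3, 27.5 and 24.8 CPM in wild type libraries 1 to 5 and 66.4, 61.1, 57.9 and 59.3 CPM in SMA libraries 1 to 4. The groups were well apart, with the lowest SMA value 57.9 and the highest wild type value 30.1 CPM. It rose by 1.13 ± 0.077 on the log2 scale (SE), 2.19-fold, with the lowest adjusted p of the 10 genes (edgeR, 4.53e-07).

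Among the NFATc factors Nfatc2 rose and the others did not pass. Nfatc2 (mm10, chromosome 2, 168476410 to 168601657, minus strand), also known for its part in myotube growth and in T cell activation, was at 14.9, 12.9, 14.7, 11.5 and 14.6 CPM in wild type libraries 1 to 5 and 43.4, 38.4, 24.0 and 40.8 CPM in SMA libraries 1 to 4. SMA 3 was the lowest SMA library and still lay above every wild type library. The gene rose 2.67-fold, by 1.42 ± 0.15 on the log2 scale (SE; edgeR adjusted p = 1.34e-05), which was the largest fold change of the 10 genes. Schwann cell markers were also higher in SMA: 4 of 5 rose, and their summed level ranged over 274 to 654 CPM in wild type and 725 to 1697 CPM in SMA. Of 7 lymphocyte markers 0 rose, 2 fell, 2 did not pass and 3 were too low to test, their summed level ranged over 4.31 to 10.7 CPM in wild type and 2.74 to 5.59 CPM in SMA, and the T cell receptor component gene Cd3e was at 0 to 0.281 CPM in SMA. Of 4 macrophage markers 0 rose and 2 fell. Their summed level ranged over 67.4 to 87.1 CPM in wild type and 34.6 to 45.9 CPM in SMA. Most of that difference lay in Mrc1, which fell from 51.1 ± 4.04 to 15.5 ± 2.11 CPM (SD, n = 5 and 4). Adgre1 fell from 2.70 to 1.57 CPM. Csf1r and Cd68, named after their values were seen, did not pass. Their means were 21.0 and 4.57 CPM in wild type and 18.3 and 6.03 CPM in SMA. The part of these cell types in the rise of Nfatc2 was not tested.

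Nfatc1, Nfatc3 and Nfatc4 overlapped between groups. Nfatc1, on chromosome 18, which is known in muscle as a factor of slow fibre genes, was at 36.4, 39.3, 41.6, 37.2 and 54.4 CPM in wild type libraries 1 to 5 and 35.8, 46.2, 31.7 and 42.2 CPM in SMA libraries 1 to 4. Wild type 5, the library with the highest adipocyte markers, was also the highest for Nfatc1, and the log2 fold change of -0.10 ± 0.14 (edgeR adjusted p = 0.560) was 0.013 without that library. Nfatc3 (mm10, chromosome 8, 106058840 to 106130537, plus strand), described in myoblasts and embryonic muscle, was at 37.1, 34.7, 39.6, 33.8 and 42.0 CPM in wild type libraries 1 to 5 and 33.6, 36.9, 28.7 and 32.3 CPM in SMA libraries 1 to 4. Its log2 fold change was -0.19 ± 0.092 (edgeR adjusted p = 0.105), and with upper-quartile scaling it was -0.24 and passed (edgeR adjusted p = 0.0272). It shares 219 exon bases with Esrp2 on the opposite strand, which had 79 counts over the 9 libraries. Nfatc4 (mm10, chromosome 14, 55823144 to 55833943, plus strand), the gene with the lowest mean CPM of the 10 in both groups, was at 11.9, 18.1, 11.3, 12.7 and 8.90 CPM in wild type libraries 1 to 5 and 10.6, 12.0, 14.7 and 12.2 CPM in SMA libraries 1 to 4. With a log2 fold change of -0.026 ± 0.17 (edgeR adjusted p = 0.910), it showed no detectable difference, and its wild type range enclosed the SMA range. A p that misses the threshold does not show equal levels, and scaling to total counts turned the sign of all 3 without a call. Nfat5, a relative that responds to tonicity and lacks the calcineurin-binding region, had 0.17 ± 0.094 (edgeR adjusted p = 0.137), and passed under scaling to total counts and without wild type 2 (edgeR adjusted p = 0.0238 and 0.0294).

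The make-up of NFATc transcripts differed between the groups, most in Nfatc2. Its share of the counts of the 4 genes was 13.0% ± 1.23 in wild type and 30.0% ± 4.71 in SMA (SD, n = 5 and 4; two-sided exact permutation test, adjusted p = 0.0132), while Nfatc1 took 39.4% ± 3.54 in wild type and 32.2% ± 2.38 in SMA and Nfatc3 took 35.5% ± 1.63 in wild type and 27.3% ± 1.52 in SMA (the same adjusted p from the exact permutation test for both). The share of Nfatc1 had an adjusted p of 0.0510 without SMA 1. Nfatc4 took 12.1% ± 3.63 in wild type and 10.5% ± 2.94 in SMA and did not pass (exact permutation test, adjusted p = 0.500). Shares of 1 family sum to a whole, so a higher share of Nfatc2 lowers the others. The count of Nfatc2 divided by that of Nfatc1 was 0.410, 0.329, 0.353, 0.309 and 0.268 in wild type libraries 1 to 5 and 1.21, 0.830, 0.756 and 0.967 in SMA libraries 1 to 4. Per kilobase of exon the ratio was 0.289, 0.232, 0.250, 0.218 and 0.189 in wild type and 0.856, 0.586, 0.534 and 0.683 in SMA. The SMA libraries were above the wild type libraries on both scales, and per length Nfatc2 exceeded Nfatc1 in no library. With lengths counted, the difference in the Nfatc3 share was -5.46 in place of -8.21 percentage points.

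**Figure D3:**
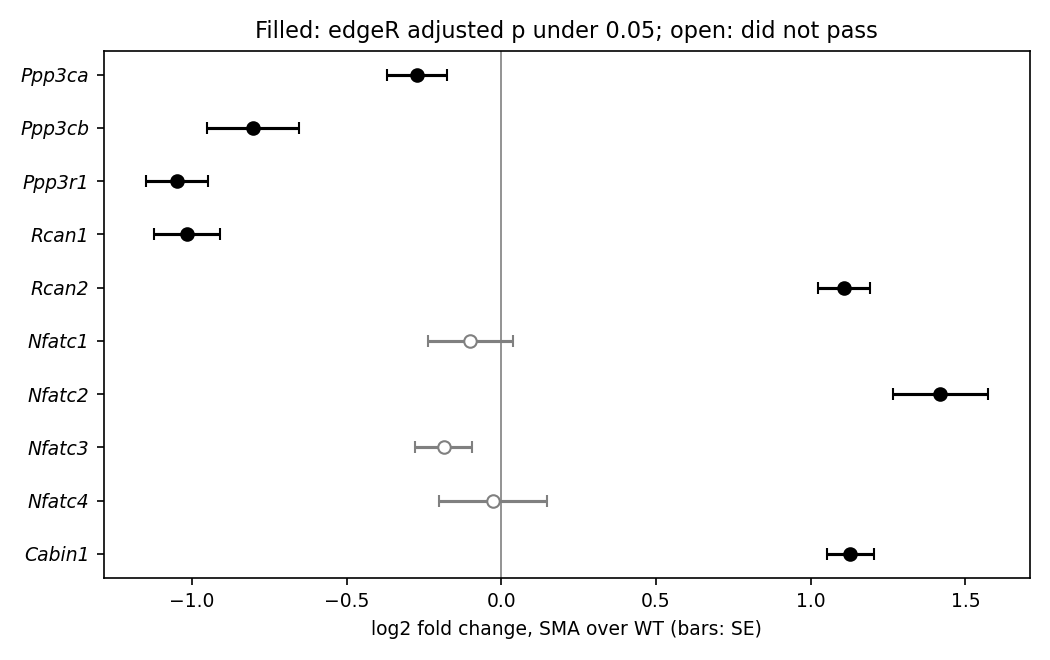
Log2 fold change of SMA over wild type for the 10 genes with its SE, filled where the edgeR adjusted p was under 0.05. Rcan2, Nfatc2 and Cabin1 lie between 1.11 and 1.42, Ppp3ca, Ppp3cb, Ppp3r1 and Rcan1 lie between -1.05 and -0.27, and Nfatc1, Nfatc3 and Nfatc4 are open.

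Compared per length, as CPM per kilobase of exon, calcineurin B was the most abundant of the 10 transcripts in both groups. In wild type the order was Ppp3r1 at 74.8 ± 8.16, Rcan1 at 35.1 ± 4.45 and Ppp3ca at 23.7 ± 1.52 CPM per kilobase (SD, n = 5), each apart from the next. Ppp3cb, Rcan2 and Nfatc1 followed at 6.77, 6.69 and 5.59, and these 3 overlapped. Nfatc3, Cabin1, Nfatc4 and Nfatc2 closed the order at 3.19, 2.30, 2.16 and 1.30, with Cabin1 and Nfatc4 overlapping. In SMA Ppp3r1 was at 36.2 ± 2.87 (SD, n = 4), Ppp3ca at 19.7 ± 2.41, Rcan1 at 17.3 ± 1.63 and Rcan2 at 14.4 ± 1.47 CPM per kilobase. There Ppp3ca and Rcan1 overlapped, as did Rcan1 and Rcan2. Nfatc1 at 5.22 and Cabin1 at 5.03 overlapped too, and Ppp3cb, Nfatc2, Nfatc3 and Nfatc4, from 3.88 down to 2.13, each overlapped with the next. Exon lengths are those of GENCODE M21, and lengths of the transcripts present in muscle were not measured.

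Upstream of the phosphatase, the calmodulin genes Calm2 and Calm3 fell. Calm2 was at 235, 235, 219, 254 and 256 CPM in wild type libraries 1 to 5 and 101, 109.6, 118 and 109.7 CPM in SMA libraries 1 to 4. All SMA libraries were below all wild type libraries, as they were for Calm3. Calm2 fell by 1.13 ± 0.082 and Calm3 by 1.43 ± 0.10 on the log2 scale (SE; edgeR adjusted p = 7.50e-07 and 5.96e-07). Calm4 and Calml3, expressed in epithelia, were too low to test. Of 15 genes of calcium entry and release, 4 rose, 2 fell and 9 did not pass. Itpr3, an inositol trisphosphate receptor, rose by 1.01 ± 0.11, Plcg1, a phospholipase that makes that messenger, by 0.73 ± 0.083, and the receptor gene Itpr2 by 0.27 ± 0.08 (edgeR adjusted p = 1.19e-05, 1.92e-05 and 0.0135). Itpr2 lost its call with sex as a covariate, with upper-quartile scaling and with a replicate block (edgeR adjusted p = 0.0651, 0.0515 and 0.0508). The third receptor gene, Itpr1, named after its values were seen, fell by 0.32 ± 0.097 (edgeR adjusted p = 0.0154), and did not pass with total counts, with sex as a covariate or without SMA 1 (edgeR adjusted p = 0.597, 0.114 and 0.0548). The median of that list was -0.042, near that of all genes.

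Proteins that bind calcineurin were divided. Of 16 listed regulators and partners 15 were tested, and 5 rose, 6 fell and 4 did not pass. Myoz3 and Akap5, which anchor calcineurin at the Z-disc and at membranes, fell by 1.87 ± 0.16 and 2.15 ± 0.24 (SE; edgeR adjusted p = 2.35e-06 and 1.83e-05). Lmcd1, a LIM-domain protein described as an activator of calcineurin in muscle, rose by 0.97 ± 0.12 (edgeR adjusted p = 2.96e-05). The other calsarcin genes, named after their values were seen, moved in opposite directions: the slow-fibre form Myoz2 rose from 116 ± 22.5 to 213 ± 15.1 CPM, by 0.88 ± 0.13, and the fast-fibre form Myoz1 had -0.41 ± 0.12 (edgeR adjusted p = 1.68e-04 and 0.0102). Myoz1 did not pass when scaled to total counts or with sex as a covariate (edgeR adjusted p = 0.107 and 0.0544). Myoz3 was at 52.1, 61.0, 48.4 and 64.0 CPM in SMA libraries 1 to 4, against 155 to 282 CPM in wild type.

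NFAT kinases and scaffolds moved both ways. Of 16 genes tested, 5 rose, 3 fell and 8 did not pass. Homer1 and Homer2, scaffold proteins of which Homer2 competes with calcineurin for NFATc proteins, fell by 1.07 ± 0.16 and 1.37 ± 0.14 (SE; edgeR adjusted p = 1.48e-04 and 7.25e-06). Another gene of that family, Homer3, named after its values were seen, rose by 0.36 ± 0.12 (edgeR adjusted p = 0.0193), with overlapping groups. The casein kinase gene Csnk1e rose by 0.36 ± 0.082 (edgeR adjusted p = 0.00275). Among 11 tested partners of NFATc proteins, 4 rose, 0 fell and 7 did not pass. Those that rose included Hdac5, a class IIa deacetylase that represses MEF2, by 1.19 ± 0.096, Irf2bp2, described as a repressor of NFATc2, by 0.78 ± 0.13, and the MEF2 gene Mef2d by 0.52 ± 0.15 (edgeR adjusted p = 1.49e-06, 4.02e-04 and 0.00927). Mef2d lost its call without wild type 1 and 2 (edgeR adjusted p = 0.0577). SMA 3 was the lowest SMA library for Irf2bp2, Hdac5 and Mef2d, as for Nfatc2. The same held for Ppp3ca, Ppp3cb, Ppp3r1, Nfatc1, Nfatc3 and Cabin1, but not for Rcan1, Rcan2 and Nfatc4.

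Genes reported to respond to calcineurin or NFATc factors in striated muscle did not move one way. Of 12 listed, 10 were tested, and 1 rose, 4 fell and 5 did not pass, with a median log2 fold change of -0.27. The glucose transporter gene Slc2a4 rose by 1.09 ± 0.097, from 276 ± 21.9 to 589 ± 61.7 CPM (SD, n = 5 and 4; edgeR adjusted p = 2.90e-06). Mb, the oxygen store myoglobin, fell by 1.88 ± 0.18 (edgeR adjusted p = 4.80e-06), and is also among the skeletal muscle markers that fell. The slow-fibre genes Myh7 and Tnni1, the latter named after its values were seen, did not pass. Their log2 fold changes were -0.12 ± 0.31 and -0.22 ± 0.25 (SE; edgeR adjusted p = 0.773 and 0.470). Ptgs2, a cyclooxygenase, was at no more than 1.42 CPM in any library and fell by 3.56 ± 0.56 (edgeR adjusted p = 2.35e-04). Of 10 other calcium-calmodulin enzymes, 2 rose, 6 fell and 2 did not pass. Camk2a, a calmodulin-dependent kinase, fell by 1.19 ± 0.11, and the myosin light chain kinase gene Mylk2 and the upstream kinase gene Camkk2 rose by 1.07 ± 0.13 and 0.54 ± 0.089 (edgeR adjusted p = 4.31e-06, 2.64e-05 and 3.14e-04).

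Over the 7 lists together, with each gene counted once, 78 of 84 genes were tested, and 21 rose and 23 fell, or 56.4%, close to the 54.9% of all genes tested. With sex as a covariate 13 rose and 15 fell. Scaling to total counts, which moved the median of all genes to 0.24, gave 32 that rose and 14 that fell, and raised the share of upward calls over all genes from 50.4% to 74.7%. Among the 10 calcineurin and NFAT genes it left 3 that rose and 3 that fell, so that directions are given relative to the scaling used. Of 5 mural cell markers 0 rose and 2 fell, and the summed level ranged over 531 to 896 CPM in wild type and 262 to 355 CPM in SMA. The lower sum lay mostly in Acta2, which fell from 517 ± 122 to 119 ± 22.9 CPM (SD, n = 5 and 4). Rgs5 fell from a mean of 55.4 to 24.5 CPM. Pdgfrb, at means of 86.8 CPM in wild type and 83.2 CPM in SMA, overlapped between groups without a call. The same held for Myh11 (41.7 and 49.5 CPM) and Cspg4 (32.7 and 35.8 CPM), named after their values were seen and higher on average in SMA. Of 4 fibroblast markers 1 rose and 3 fell (418 to 612 CPM in wild type and 347 to 412 CPM in SMA). Endothelial markers held 0 that rose and 2 that fell among 5 (558 to 692 CPM in wild type and 547 to 643 CPM in SMA). The part of these cell types and of skeletal muscle in the results was not tested.

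**Figure D4:**
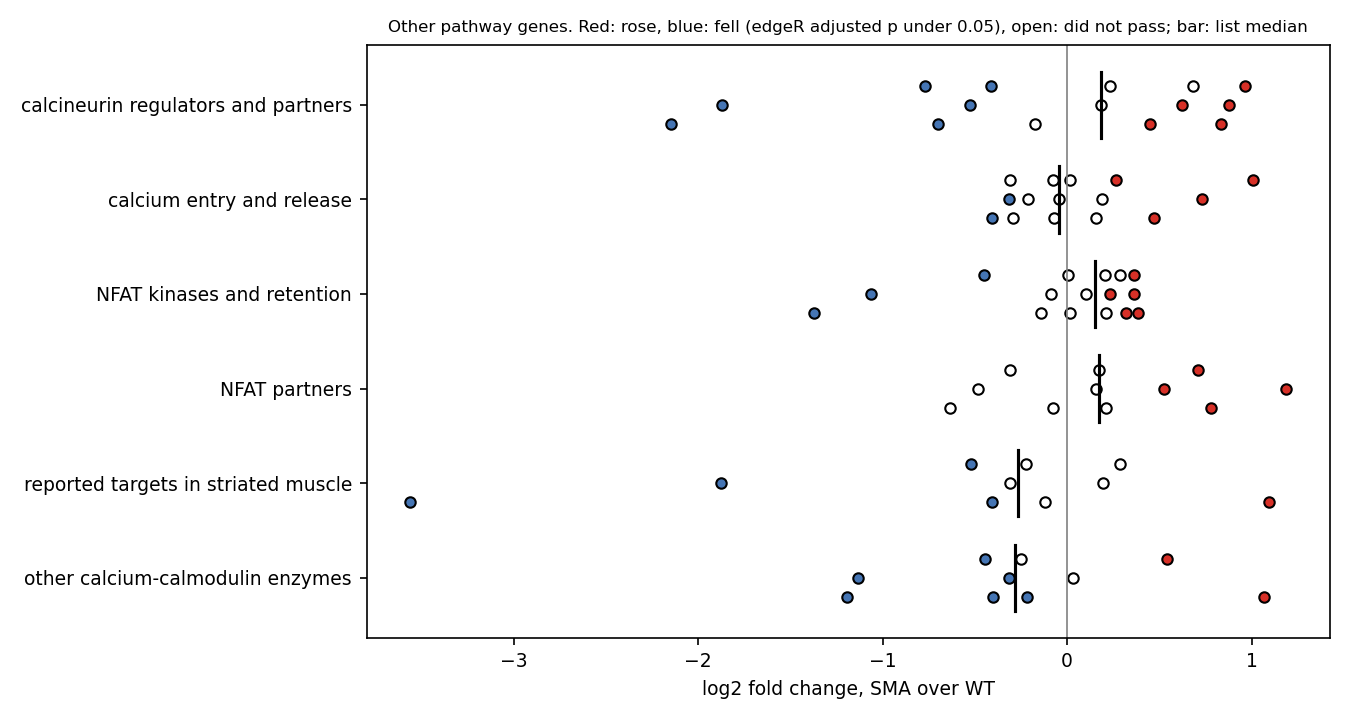
Log2 fold change of SMA over wild type for each tested gene of 6 lists of the wider pathway, with 1 point per gene (vertical offsets only separate points), red where it rose, blue where it fell and open where it did not pass, and a bar at the list median. Each of the 6 lists spreads to both sides of 0. The calmodulin list is not drawn, and its genes Calm2 and Calm3 fell.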

How the data were processed

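RNA was measured in 9 libraries made with a stranded mRNA kit, per the labels' protocols. Gene counts were deposited as whole numbers without normalization. A deposited companion table gives a scaled signal, the counts after division by a size factor of 0.734 to 1.23, and served only to check the scaling. HTSeq 0.9.1, DESeq2 1.16.1 and the build mm10 are named in the submitters' processing notes, with no role stated. The aligner, annotation and strand setting were not given in the sources used here. Depth was 24917665 to 35087722 counts per library.

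Groups and replicate numbers came from the labels. The fit used edgeR 4.0.16 in R 4.3.3 (filterByExpr, TMM scaling, a quasi-likelihood fit with group as its 1 term over all 9 libraries, Benjamini-Hochberg adjustment over 15873 genes, threshold 0.05). Each SE was taken as the absolute log2 fold change over the root of its F statistic. CPM uses the TMM-scaled library size. Shares within families had a two-sided exact permutation test. Alternatives used DESeq2 1.42.0, limma-voom from limma 3.58.1, other scalings and filters, a replicate block, sex and libraries left out. The procedure was also run on simulated counts in which few genes changed. Most genes moved in these data, so that run does not test the scaling used here. No pair of libraries within a group agreed within sampling noise (chi-square per degree of freedom at least 12.0).

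The 10 genes, the 7 pathway lists, the 10 marker lists and the tests were chosen with earlier results of these data known. Named besides the 10 genes were their relatives, Smn1 and the 3 genes of each list with the lowest adjusted p. The rule also selected the gene with the highest adjusted p in each list and 2 markers per cell type, and most of these are not reported here. Of these lists 1 gene is not reported here. Positions and exon lengths are from GENCODE M21 on mm10.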

Additional observations from a re-analysis of the deposited data

Results flagged for a closer look

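Of 40 groups of library values examined, the CPM and family shares of these genes in wild type or SMA, 1 held a library far from the rest. Nfatc4 took 14.9% of the NFATc counts in SMA 3, against 8.56% to 9.54% in the other SMA libraries. Chance marks about 1 in 20 such groups. SMA 3 also had the lowest Nfatc2 level of the SMA libraries, 24.0 CPM. It was likewise the lowest SMA library for Ppp3ca, Ppp3cb, Ppp3r1, Nfatc1, Nfatc3 and Cabin1.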

How the results depend on the processing

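Ppp3cb, Ppp3r1, Rcan1, Rcan2, Nfatc2 and Cabin1 kept their direction and passed in each of 21 alternatives, 19 planned and 2 added after seeing the data. Of those added, libraries 1 to 4 without a block repeats the planned fit without wild type 5. Over the planned ones the log2 fold change ran from -0.88 to -0.55 for Ppp3cb, -1.11 to -0.81 for Ppp3r1, -1.09 to -0.77 for Rcan1, 1.04 to 1.34 for Rcan2, 1.33 to 1.65 for Nfatc2 and 1.07 to 1.35 for Cabin1. Ppp3ca passed in 10 of the 19. Genes that never passed changed sign: Nfatc1 to 0.14 with total counts, 0.0011 with the replicate block, 0.099 without wild type 5 and SMA 3 and 0.013 without wild type 5; Nfatc4 to 0.19 with total counts, 0.015 with sex, 0.14 without wild type 2, 0.042 without SMA 1 and 0.17 without wild type 1 and 2; and Rcan3 to -3.52e-04 without wild type 5 and SMA 3. Nfatc3, which passed with upper-quartile scaling alone, changed to 0.051 with total counts. With sex as a covariate 28 genes of the wider lists passed against 44. Leaving out single libraries gave -0.19 to 0.013 for Nfatc1 and -0.13 to 0.14 for Nfatc4. Ptgs2, at few counts, could be tested in 14 of the alternatives and fell in each. The causes were not tested.

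Same-numbered libraries correlated at -0.048 to 0.118 in their deviations from the group means, and none of the 4 SMA libraries correlated best with its own number, so the numbers were not taken as pairs. With the replicate block 7872 genes passed against 8581 in the same 8 libraries without it and 8712 in all 9, and 6 of the 10 genes, Ppp3ca being the one lost. Sign flips of 4 same-numbered pairs of libraries, a replicate block that cannot reach the threshold, gave share differences of -4.11 for Ppp3cb, 2.11 for Ppp3cc, -30.5 for Rcan1, 29.1 for Rcan2, -5.71 for Nfatc1, 16.8 for Nfatc2 and -8.32 percentage points for Nfatc3. The Ppp3cb share difference was -4.24 points without wild type 5 and SMA 3, and that of Rcan3 passed at 1.95 points when counts were divided by length. Leaving out single libraries gave 2.00 to 4.07 for Ppp3ca, -6.18 to -4.11 for Ppp3cb, 1.45 to 2.37 for Rcan3 and -8.02 to -5.71 for Nfatc1, and Ppp3ca and Rcan3 passed without wild type 4.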
